A study of Mus musculus with 3 samples.

Results

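The genes described here are 43 of the 32285 genes in the count matrix, a set of unfolded protein response, endoplasmic reticulum (ER) folding and secretory pathway genes. They are a list of genes by name, drawn up with earlier results of these data known. They were followed across the B cell states of the spleen and between mice sufficient and deficient for LDHA, the enzyme that interconverts pyruvate and lactate. Spleen B cells came from 3 LDHA-sufficient and 3 LDHA-deficient mice, each mouse carrying its own antibody hashtag. Viable B cells were sorted with GL7, a surface glycan of germinal centre B cells, among the sort markers, and all mice shared 1 lane of a 10x 5′ kit. The label of the gene expression library calls them pre-GC and GC B cells, while those of the hashtag and heavy chain libraries give hematopoietic stem and progenitor cells as the cell type, against their own titles. The study asked what LDHA does in the activation and proliferation of germinal centre (GC) B cells. The labels used here name no allele, Cre driver, strain, age or immunisation. A hashtag identifies a mouse and pairs no mice.

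The ER is where a cell folds, links by disulfide bonds and glycosylates the proteins it secretes. When unfolded protein builds up, the sensor IRE1 (Ern1) splices the Xbp1 message into a transcription factor, and the sensor ATF6 is released to act as one, and both raise chaperones, disulfide isomerases, degradation factors and parts of the import machinery. Plasma cells, which secrete antibody, need XBP1 for this expansion of the ER, and they are marked by Prdm1 (the regulator Blimp-1) and Jchain (the joining chain of secreted IgM and IgA).

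XBP1 and ATF6 act through short promoter elements, which were searched for in the promoters of the members. RefSeq promoter windows (GRCm38.p6, 250 bases before to 50 after the start, gene strand) were at hand for 34 of the 43 genes, in 39 windows. The ER stress response element ERSE was searched on both strands as CCAAT, any 9 bases and CCACG. It occurred in 9 of those 34 genes (26.5%), by window in 9 of 39, and in 39 of all 32851 windows (0.119%). ERSE-II was searched as ATTGG, any 1 base and CCACG. It occurred in 3 of the 34 genes (8.82%), by window in 3 of 39, and in 12 of all windows (0.0365%). The core of the UPR element, TGACGTGG on either strand, occurred in 1 of the 34 genes (Txndc5, 2.94%), by window in 1 of 39, and in 0.676% of all windows. No member window held more than 1 of these 3 motifs, and Hsp90b1 held ERSE at 2 places that do not overlap. These are matches of letters, not measured binding. Windows are printed for the genes that span the range of the results that follow: Derl3, Creld2 and Hsp90b1 had the largest differences among ERSE holders in plasma cells, Hspa5 encodes the central ER chaperone, and Canx held ERSE but did not pass the test. Capitals mark the fixed letters of ERSE, read on the opposite strand in Derl3, Creld2 and, for Hsp90b1, at the place nearer the start.
Derl3 (chr10:75893148-75893447, plus strand): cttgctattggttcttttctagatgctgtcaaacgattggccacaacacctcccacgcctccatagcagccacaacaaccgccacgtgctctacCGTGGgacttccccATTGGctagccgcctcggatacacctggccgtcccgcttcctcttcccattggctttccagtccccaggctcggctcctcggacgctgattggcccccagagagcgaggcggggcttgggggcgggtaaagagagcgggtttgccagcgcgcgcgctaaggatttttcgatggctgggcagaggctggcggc
Creld2 (chr15:88819396-88819695, plus strand): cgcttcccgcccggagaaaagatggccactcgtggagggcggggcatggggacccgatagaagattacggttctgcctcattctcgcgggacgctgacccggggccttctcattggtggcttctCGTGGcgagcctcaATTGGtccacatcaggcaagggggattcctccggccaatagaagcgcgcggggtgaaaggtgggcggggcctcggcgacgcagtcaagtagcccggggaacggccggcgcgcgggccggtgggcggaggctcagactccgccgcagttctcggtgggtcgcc
Hsp90b1 (chr10:86705395-86705694, minus strand): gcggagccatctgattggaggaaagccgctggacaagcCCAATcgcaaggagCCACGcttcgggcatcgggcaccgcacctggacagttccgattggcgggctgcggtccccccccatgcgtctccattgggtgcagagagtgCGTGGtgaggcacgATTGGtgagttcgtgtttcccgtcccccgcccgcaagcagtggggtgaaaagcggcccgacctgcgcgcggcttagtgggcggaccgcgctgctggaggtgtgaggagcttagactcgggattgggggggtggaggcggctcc
Hspa5 (chr2:34771840-34772139, plus strand): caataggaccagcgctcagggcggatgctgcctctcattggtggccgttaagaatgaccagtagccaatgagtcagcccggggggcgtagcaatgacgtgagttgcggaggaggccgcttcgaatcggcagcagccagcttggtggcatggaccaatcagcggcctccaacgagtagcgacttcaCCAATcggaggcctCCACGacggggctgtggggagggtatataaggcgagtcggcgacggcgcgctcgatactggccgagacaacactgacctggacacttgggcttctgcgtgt
Canx (chr11:50325624-50325923, minus strand): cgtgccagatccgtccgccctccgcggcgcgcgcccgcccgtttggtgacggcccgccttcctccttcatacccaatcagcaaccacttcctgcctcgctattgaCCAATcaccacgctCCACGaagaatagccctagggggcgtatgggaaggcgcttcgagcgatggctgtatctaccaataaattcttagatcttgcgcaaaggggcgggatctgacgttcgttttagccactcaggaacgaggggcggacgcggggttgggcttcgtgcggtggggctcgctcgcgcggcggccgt
The ERSE of the other 4 holders and the ERSE-II of 3 genes are given as the match alone, read in the direction of the motif, with the fixed letters in capitals.
Calr, ERSE: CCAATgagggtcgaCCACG
Dnajc3, ERSE: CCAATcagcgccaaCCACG
Pdia6, ERSE: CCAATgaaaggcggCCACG
Syvn1, ERSE: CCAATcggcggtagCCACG
Herpud1, ERSE-II: ATTGGgCCACG
Dnajb11, ERSE-II: ATTGGcCCACG
Krtcap2, ERSE-II: ATTGGaCCACG

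After hashtag calling and filters, 1768 B-lineage cells entered the comparisons, 235 to 359 per mouse, with 1123230 to 2203435 UMIs (unique transcript counts) per mouse and median UMIs per cell of 3769 to 4374. The targeted gene followed the labels: Ldha stood at 234, 241 and 168 CPM in the LDHA-sufficient mice and 50.7, 49.3 and 70.9 in the LDHA-deficient ones. CPM is the count scaled to a common library total, in single-gene comparisons after edgeR's TMM scaling. Markers of myeloid or dendritic cells summed to 246 to 261 CPM in LDHA-sufficient and 243 to 260 in LDHA-deficient mice, with 14 of 15 detected and Cd14 at 0. T or NK cell markers, 12 of 12 detected, ran from 19.5 to 55.2 and from 8.30 to 30.3 CPM. Red cell genes, 6 of 6 detected, ran from 24.1 to 3148 CPM in LDHA-sufficient mice, highest in mouse 3, and from 33.4 to 163 in LDHA-deficient mice, and their part in the results was not tested. GC B-like cells made up 21.5%, 25.3% and 7.22% of the B cells of LDHA-sufficient mice 1 to 3 and 4.09%, 2.23% and 5.96% of those of LDHA-deficient mice 1 to 3, in cells sorted on GL7.

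Plasma cells were picked by 2 genes outside the set, as B-lineage cells with at least 3 Jchain and 1 Prdm1 UMIs. There were 17, with 7, 4 and 3 in LDHA-sufficient mice 1 to 3 and 2, 0 and 1 in LDHA-deficient mice 1 to 3. They are called plasma cells here by this rule alone. The rule favours deep cells, and their median depth was 19791 UMIs. In a first clustering of all cells 14 of the 17 fell in clusters named GC B-like. The cluster of 117 cells with that name was led by Jchain, Fkbp11 and Prdm1. With hashtags called by ratio, a clustering of all cells gave a plasma cell-like cluster of 18 cells. With the members kept among the clustering genes, a plasma cell-like cluster of 17 cells held 10 of the 17 picked cells. Single Jchain UMIs were common outside them: 51.9% of 54 myeloid cells (median 4268 UMIs per cell) and 60.5% of the other B cells (median 3918) held a Jchain UMI, with a median of 1 in each. Prdm1 was found in 0 of those 54 myeloid cells. Of the 9 listed plasma cell markers, Jchain and Prdm1 were higher in the 17 cells by the picking rule itself. Summed over the 17 cells, the others (Sdc1, Tnfrsf17, Slamf7, Irf4, Ell2, Tent5c and Cd93) also had higher CPM than in the other B cells. Tnfrsf17 (BCMA) had 52 UMIs against 17 in all 1751 other B cells, and Sdc1 (CD138) 26 against 57. B cell identity genes were lower, Pax5 at 62.5 against 429 CPM and Ms4a1 (CD20) at 347 against 1513 CPM. Heavy chains were recovered in 14 of the 17, of IgM in 8, IgA in 5 and IgG2c in 1, from 13 clones.

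The 17 cells differed widely in their ER genes, and 6 of them did not stand apart from other B cells. In 11 of them the 43 genes summed to between 4.60% and 18.2% of non-immunoglobulin UMIs, and in the other 6 to between 0.247% and 0.934%, where the other 1751 B cells had a median of 0.518% and a 5th to 95th percentile range of 0.280% to 0.993%. The 11 cells held 11 to 2334 Jchain UMIs, 12.2% to 62.2% of their UMIs were immunoglobulin, and each expressed at least 41 of the 43 genes. The 6 cells held 3 to 18 Jchain UMIs and 0.652% to 8.72% immunoglobulin. Of the 11, 10 came from LDHA-sufficient mice and 1 from LDHA-deficient mouse 1. A further 6 B cells had at least 50 Jchain UMIs but no Prdm1 UMI, and their summed level ran from 0.417% to 5.31%, with a median of 4.81%.

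**Figure D1:**
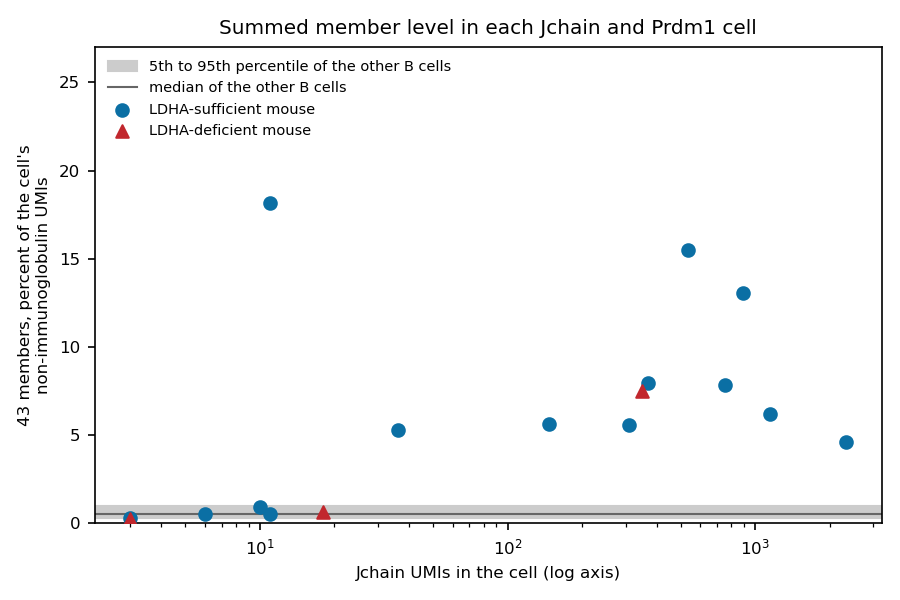
Each point is 1 of the 17 Jchain and Prdm1 cells, with its Jchain UMIs on a log axis and the summed level of the 43 genes as a percent of its non-immunoglobulin UMIs. The 11 upper cells lie at or above 4.60%, outside the grey band of the other B cells (0.280% to 0.993%), and 1 of them comes from an LDHA-deficient mouse.

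To ask which ER genes set plasma cells apart, the UMIs of these cells were summed per mouse and compared with the other B cells of the same mouse in the 3 LDHA-sufficient mice, which had at least 3 such cells each (edgeR, mouse as a block). The sums took in all picked cells of a mouse, also those whose ER genes did not stand apart from other B cells. In mouse 2 such cells, with 19791 and 11518 UMIs, held much of the 52822 UMIs summed. Their summed levels were 0.513% and 0.526%. Nearly the whole set was higher. Of the 43 genes 39 passed the test (adjusted p under 0.05) and all were higher, where 2.77% of the 7519 genes tested were called higher. The median log2 difference over the 43 was 2.59, from 0.71 to 5.89, beside a median of -0.22 over all genes tested. All 43 passed the filter on low counts, and all but Ern1, which had 7 UMIs in 1 mouse, had at least 10 UMIs in the other B cells of every mouse. Fkbp11, with 10 to 27 UMIs there, and Ern1, with 7 to 16, passed the filter only through the plasma cells.

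The sensors and their transcription factor all rose in plasma cells. Xbp1 stood at 91.0, 83.6 and 65.2 CPM in the other B cells of LDHA-sufficient mice 1 to 3 and at 832, 481 and 2087 in their plasma cells, so that every plasma cell sum lay above every other sum. Its log2 difference was 3.56 ± 0.51 (SE), adjusted p = 1.05e-09. Ern1 was scarce, at 6.81, 3.36 and 4.91 CPM in other B cells and 112, 17.2 and 214 in plasma cells, a log2 difference of 4.23 ± 0.62 that rests on 25 UMIs in the 14 plasma cells. Atf6 had the smallest difference of the 3, from 48.9, 56.7 and 69.4 CPM to 203, 172 and 214, or 1.79 ± 0.46.

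Among the chaperones 11 of 12 rose, with a median log2 difference of 3.32. Fkbp11, a prolyl isomerase of secretory cells, showed the largest difference of all 43 genes, from 11.5, 4.199 and 10.5 CPM to 301, 618 and 696 (log2 5.89 ± 0.53, adjusted p = 2.15e-25). Creld2, an ER stress-induced secreted factor with ERSE in the window printed above, went from 42.1, 32.3 and 40.0 to 1462, 858 and 1017 CPM (log2 4.84 ± 0.53). Hsp90b1 (GRP94), the ER member of the HSP90 family, went from 577, 590 and 674 to 10961, 6558 and 13272 CPM (log2 4.01 ± 0.51). In these 3 genes the groups were far apart in every mouse, though Fkbp11 passed the low-count filter only through the plasma cells. Hspa5 (BiP), the HSP70 of the ER that also holds the sensors inactive, rose 3.17 ± 0.49 on the log2 scale, from 416, 410 and 430 to 3917, 3039 and 4442 CPM. Canx (calnexin), a membrane-bound lectin chaperone, was the one chaperone that did not pass, at 311, 320 and 309.2 CPM against 560, 549 and 428 (log2 0.71 ± 0.46, adjusted p = 0.518).

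All 4 disulfide isomerases rose, with a median of 2.82. Pdia4 (ERp72) led them, from 248, 184 and 234 CPM to 2777, 2438 and 4415 (log2 3.82 ± 0.50). Txndc5, the holder of the UPR element core, had 163, 142 and 108 CPM in other B cells and 1147, 858 and 2087 in plasma cells (3.22 ± 0.50), and Pdia6 137, 153 and 150 against 972, 618 and 803 (2.43 ± 0.47). Pdia3, which works with calnexin and calreticulin, showed the smallest difference, 337, 365 and 311 against 1546, 979 and 883 CPM (1.72 ± 0.47).

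Of the 11 genes of ER-associated degradation, by which misfolded proteins are drawn out of the ER and destroyed, 9 rose, with a median of 2.59. Derl3, a channel component of this pathway, went from 11.5, 16.0 and 13.3 CPM to 504, 309.03 and 829 (log2 5.23 ± 0.51, adjusted p = 6.77e-21). Edem2, a mannosidase that marks misfolded glycoproteins, went from 27.6, 22.3 and 25.2 to 252, 258 and 990 CPM (3.99 ± 0.48), and its relative Edem1 from 93.1, 73.9 and 71.5 to 804, 841 and 1579 (3.68 ± 0.50). No plasma cell sum of these 3 genes came near the other B cells. Derl2, a paralogue of Derl3, did not pass, at 40.0, 31.5 and 44.2 CPM against 83.9, 34.3 and 80.3 (0.81 ± 0.60, adjusted p = 0.609). Syvn1 (HRD1), the ubiquitin ligase of the pathway, did not pass either (1.13 ± 0.45, adjusted p = 0.157).

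The import, signal peptide cleavage and glycosylation genes had the smallest median of the 5 roles, 2.17, and 12 of 13 rose. Ssr4, a subunit of the translocon-associated complex, went from 128, 94.9 and 126 CPM to 693, 429 and 3131 (3.07 ± 0.51). Sec11c, a catalytic subunit of signal peptidase, went from 184, 173 and 200 to 1056, 584 and 2783 (2.70 ± 0.49), and Ssr2 from 61.7, 63.8 and 61.0 to 553, 172 and 482 (2.60 ± 0.47). The channel subunit Sec61g did not pass, with 300, 315 and 347 CPM against 1259, 172 and 1177 (1.14 ± 0.50, adjusted p = 0.214). Its sum over the picked cells of mouse 2, the cells with low ER genes included, lay below that of the other B cells.

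**Figure D2:**
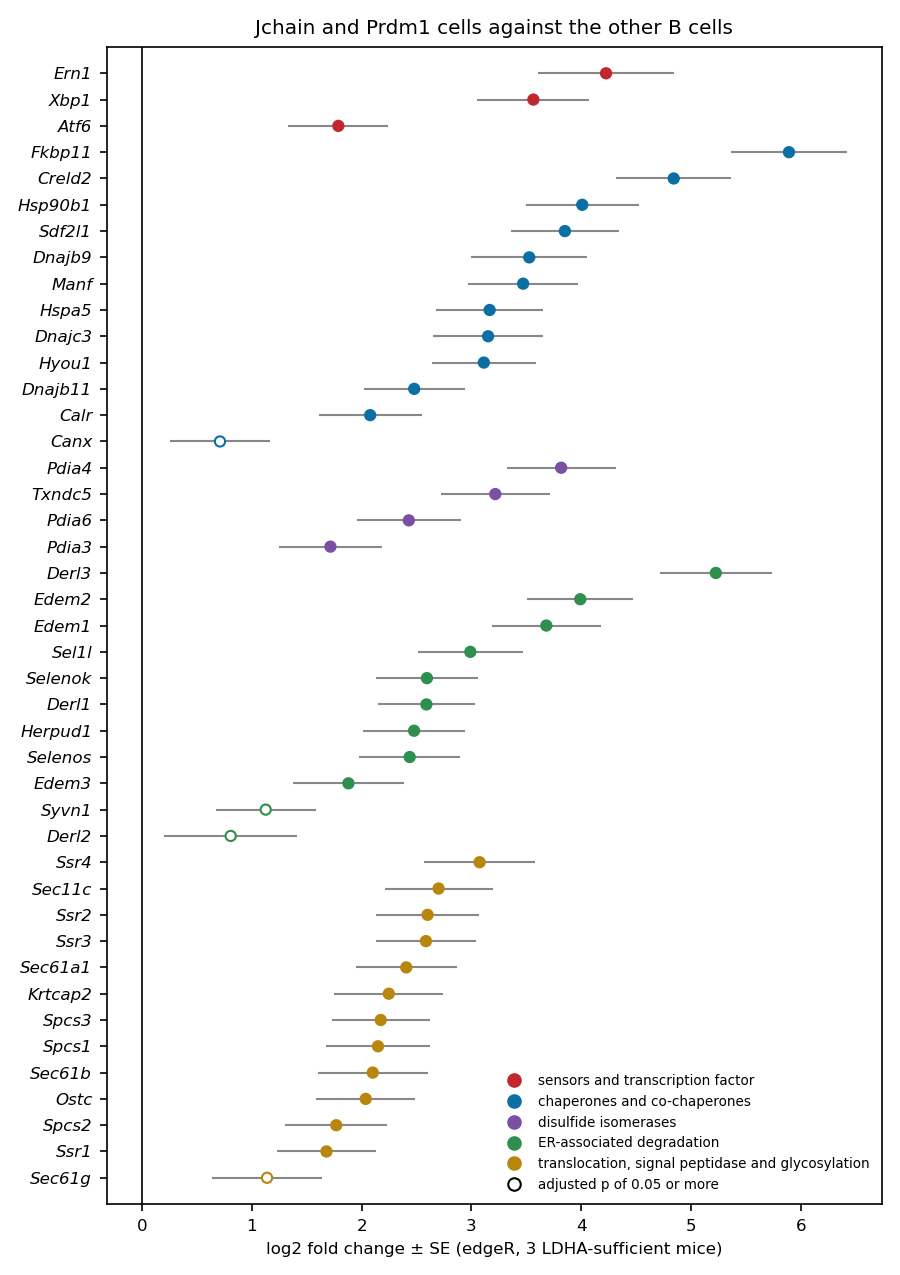
Log2 fold change ± SE of each of the 43 genes in Jchain and Prdm1 cells against the other B cells of the same 3 LDHA-sufficient mice, grouped by role. Filled points passed an adjusted p of 0.05, and the 4 open points (Canx, Syvn1, Derl2 and Sec61g) did not. All 43 lie to the right of 0, from 0.71 to 5.89.

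Genes with and without these promoter letters were higher alike in direction. The 9 ERSE holders had a median log2 difference of 3.15 (0.71 to 5.23, 7 of 9 called), the 3 ERSE-II holders 2.48 (2.25 to 2.48, all called), and the 22 genes with a window and neither motif 2.79 (0.81 to 5.89, 20 of 22 called). The difference between these groups was not tested. LDHA-sufficient mouse 1, the source of 7 of the 14 cells, carried much of the count: without it 21 of the 43 genes were called, all higher, with a median of 2.42, beside 0.938% of all genes called in either direction. Against GC B-like cells alone in place of all other B cells, 37 of 42 genes tested were called, all higher, beside 4.75% of 3388 genes called in either direction.

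Around these members, 7 lists of neighbouring pathways were read in the same comparison. Genes of plasma cell fate were called higher in 12 of 19 tested, COPII coat and ER-to-Golgi carriers in 11 of 27, signal recognition particle and translocon partners in 8 of 15, ER redox and other folding enzymes in 8 of 20, ER degradation partners in 6 of 19, and oligosaccharyltransferase and glycan assembly in 5 of 17. The plasma cell fate list holds Prdm1 and Jchain, which picked the cells, and without them 10 of 17 were called higher. None of these 6 lists held a gene called lower. The PERK arm and integrated stress response, the branch that slows translation, had 1 of 8 higher, Asns (asparagine synthetase, log2 3.53 ± 0.65), and 1 lower, Ddit4, which had 0 UMIs in the plasma cells of all 3 mice, both named after their values were seen. Its median was 0.95, beside 2.20 for plasma cell fate without the picking pair.

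In every clustered B cell class the summed level of the set stayed under 1%. The high Jchain cells, set aside before clustering, belong to none of these classes. They stood at 2.17%, 4.65% and 5.16% in LDHA-sufficient mice 1 to 3 and 1.56% in LDHA-deficient mouse 3. Single cells outside the picked plasma cells reached up to 7.13%. These levels are a description, since the classes come from clustering, with the members left out of the clustering genes. The summed level of the 43 genes, as a percent of non-immunoglobulin UMIs, was 0.517% ± 0.037 (SD, n = 6 mice) in follicular B-like cells, 0.594% ± 0.046 in marginal zone B-like, 0.528% ± 0.047 in interferon-responding, 0.676% ± 0.064 in activated and 0.727% ± 0.120 in GC B-like cells. The unnamed clusters led by Klf2 and by Hivep3 had 0.504% ± 0.014 and 0.550% ± 0.043. Plasma cells stood at 4.70%, 3.44% and 7.31% in LDHA-sufficient mice 1 to 3. Activated and GC B-like cells did not differ beyond their spread, nor did the follicular, interferon-responding and Hivep3-led cells among themselves. GC B-like cells were deeper, with per-mouse median UMIs of 9006 to 15617 against 3000 to 3249 in follicular B-like cells, and thinned to 1000 UMIs a cell they stood at 0.702% ± 0.106 against 0.510% ± 0.034.

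Of the 43 genes all had their highest mean in plasma cells, and 22 had their next highest in GC B-like cells, 7 in activated B-like and 7 in the Hivep3-led cells. Against follicular B-like cells of the same mouse, 15 of the 43 genes were higher in GC B-like cells in all 6 mice, beside 16.6% of 9153 genes, and 1 was lower, beside 17.6%. The median fold over the 43 was 1.36, beside 0.954 over all of those genes. Hspa5 was highest outside plasma cells in activated B-like cells, at 809 ± 128 CPM of non-immunoglobulin UMIs (SD, n = 6 mice), against 604 ± 200 in GC B-like and 448 ± 20.3 in follicular B-like cells. Pdia4 was highest outside plasma cells in marginal zone B-like cells, at 567 ± 127 CPM against 258 ± 42.6 in follicular B-like cells, and its lowest marginal zone value, 378, lay above its highest follicular value, 333. Xbp1 showed no such step, with means from 42.6 to 85.8 CPM over the 7 classes and SDs of 14.3 to 36.4. Derl3 and Fkbp11 were near the limit of detection in the clustered classes, with 57 and 6 UMIs in all 200 GC B-like cells and 16 and 18 UMIs in 608 follicular B-like cells.

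**Figure D3:**
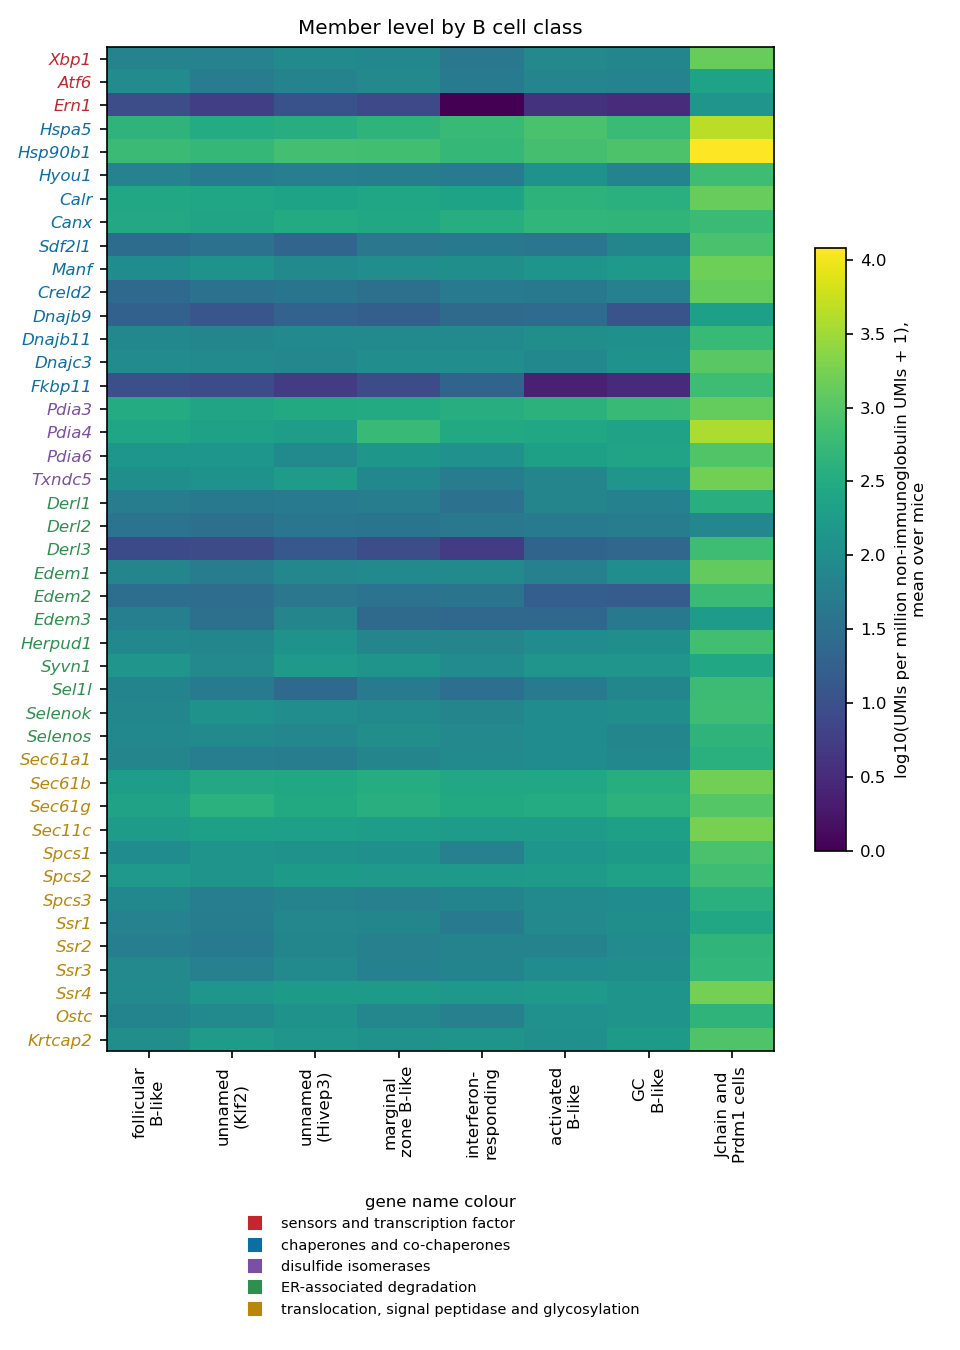
Mean level over mice of the 43 genes in each B cell class, on a log10 scale of CPM of non-immunoglobulin UMIs, with gene names coloured by role. The plasma cell column is the brightest for every gene, and the order of the other 7 columns differs between genes, as for Pdia4, highest of them in marginal zone B-like cells (567), and Hspa5, highest in activated B-like cells (809).

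The 17 cells, 0.962% of the B cells, held 16.4% of all UMIs of the 43 genes over the B cells (95% Clopper-Pearson interval 16.2% to 16.7%, counting error only). In LDHA-sufficient mice 1 to 3 the share was 32.8%, 11.0% and 22.3%, and in LDHA-deficient mice 1 to 3 it was 11.9%, 0% (of 8817 UMIs) and 0.235%. LDHA-deficient mouse 2 had 0 of 359 cells picked, which allows up to 1.02% of its cells (95% Clopper-Pearson interval). By gene the share ran from 4.35% for Canx to 60.6% for Fkbp11, with a median of 13.7%, and passed 20% for 13 genes, among them Derl3 (47.8%), Creld2 (45.4%), Hsp90b1 (30.3%), Sdf2l1 (29.9%) and Xbp1 (23.7%). The cells made up 2.24%, 1.27% and 1.08% of the B cells in LDHA-sufficient and 0.744%, 0% and 0.426% in LDHA-deficient mice, means of 1.53% ± 0.624 and 0.390% ± 0.373 (SD, n = 3 mice each). Every LDHA-sufficient mouse lay above every LDHA-deficient one (exact two-sided permutation test over mice, p = 0.1, the smallest that 3 against 3 mice can give). The shares overlapped with hashtags called by ratio, at 8 of 330, 4 of 281 and 2 of 241 cells against 4 of 278, 0 of 384 and 0 of 238. A rule of at least 10 Jchain and 2 Prdm1 UMIs gave 4, 1 and 3 cells against 1, 0 and 0, again with overlapping shares.

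Between genotypes, over all B cells of each mouse, 2 ER degradation genes fell in LDHA-deficient mice. Derl3 (chr10:75893413-75895941, mm10) stood at 44.3, 26.1 and 37.1 CPM in LDHA-sufficient mice 1 to 3 and 11.1, 8.004 and 18.4 in LDHA-deficient mice 1 to 3, and Edem1 (chr6:108828641-108859356) at 149.5, 105 and 119 against 87.9, 62.8 and 63.0. For both genes every LDHA-deficient mouse lay below every LDHA-sufficient one. The log2 differences were -1.56 ± 0.30 for Derl3 (edgeR adjusted p = 0.0199) and -0.81 ± 0.17 for Edem1 (adjusted p = 0.0305). These 2 of 43 calls stand beside 0.928% of 9161 genes called lower. Plasma cell markers, 9 of 9 detected, summed to 1518 to 3130 CPM in LDHA-sufficient and 471 to 864 in LDHA-deficient mice. Jchain itself stood at 2149, 1196 and 2918 CPM against 559, 227 and 474 (-2.32, adjusted p = 0.173), and Prdm1 at 16.1, 9.77 and 11.1 against 9.50, 1.23 and 3.50 (-1.45, adjusted p = 0.173), with no overlap in either gene and neither past the test. A sum over all B cells cannot tell fewer plasma cells from less RNA in each cell.

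The other 41 genes did not pass edgeR's test, though most had values on the same side. DESeq2 called 7 members, all lower, beside 2.03% of genes in either direction. Of the 43, 41 had a negative log2 difference, with a median of -0.30 (-1.56 to 0.05) beside 0.01 over all genes tested, and 21 had an unadjusted p under 0.05, against 16.7% of all genes. In 17 of the 43 every LDHA-deficient mouse was below every LDHA-sufficient one, against 10.2% of all genes. By role the medians were -0.66 for the sensors and Xbp1, -0.51 for chaperones, -0.34 for degradation, -0.26 for import and glycosylation and -0.16 for isomerases. The sensors and Xbp1 are only 3 genes, from -0.69 to 0.05, so their median is the value of a single gene. Xbp1 stood at 149, 106 and 127 CPM against 104, 66.5 and 67.4, a difference of -0.69 ± 0.18 that did not pass in edgeR (adjusted p = 0.1003) and lay at the threshold in DESeq2 (adjusted p = 0.04996). Hspa5 stood at 688, 536 and 577 CPM against 525, 466 and 521 (-0.25 ± 0.11, adjusted p = 0.275). In Xbp1 and Hspa5 the genotypes did not overlap, though the lowest LDHA-sufficient mouse lay close to the highest LDHA-deficient one. Ern1, at 14.3, 4.19 and 11.1 against 5.54, 7.39 and 5.25 CPM, and Atf6, at 64.5, 67.4 and 79.3 against 63.3, 70.2 and 84.0, overlapped between genotypes. The 2 calls depended on single mice, though the direction did not. Without LDHA-sufficient mouse 1, LDHA-deficient mouse 2 or LDHA-deficient mouse 3 the count was 0, where 0.357%, 0.0108% and 0.0314% of all genes were called in either direction. Derl3 then stood at -1.35, -1.29 and -1.92 and Edem1 at -0.65, -0.72 and -0.73. Without LDHA-deficient mouse 1 the count was 1 (0.126% of genes). Without LDHA-sufficient mouse 3 it was 8, all lower, in a comparison that called 14.7% of all genes.

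Leaving the 17 plasma cells out moved the median difference towards 0 and ended both calls. These cells are rich in the members' UMIs and most came from LDHA-sufficient mice. Their removal therefore moves the values this way by construction, and the cause of the differences was not tested. Derl3 then stood at 13.04, 18.2 and 14.5 CPM against 11.4, 8.08 and 18.5, with the genotypes overlapping (-0.32 ± 0.31, adjusted p = 0.654), and Edem1 at 106, 84.3 and 77.9 against 78.7, 63.4 and 63.5 (-0.39 ± 0.15, adjusted p = 0.209). Over the 42 genes tested 0 were called by edgeR and 0 by DESeq2, beside 1.08% of 9152 genes, and 6 had an unadjusted p under 0.05, against 15.7% of all genes. The median was -0.11, 31 of 42 were negative, and 5 had all LDHA-deficient mice lowest, against 9.93% of genes. GC B-like cells, a larger share in every LDHA-sufficient mouse than in any LDHA-deficient one, remained in this comparison. Their part in its values was not tested. Xbp1 stood at 103, 95.3 and 71.0 against 88.4, 67.1 and 67.1 CPM (-0.29 ± 0.16, adjusted p = 0.387), with the genotypes overlapping. Hsp90b1, singled out after its values were seen, went from -0.58 ± 0.19 to -0.08 ± 0.10, with 655, 673 and 734 CPM against 652, 589 and 716, and Hspa5 from -0.25 to 0.08 ± 0.10, at 472, 467 and 468 against 496, 470 and 524. With the high Jchain cells and the plasma cell-like cluster also left out, 0 of 41 genes were called, beside 1.15% of genes, and the median was -0.07. In the comparison without the 17 cells, leaving out LDHA-sufficient mouse 3 gave 4 calls, 3 lower and 1 higher, where 14.6% of all genes were called.

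Txndc5 had the smallest p without plasma cells, at 185, 161 and 118 CPM in LDHA-sufficient and 112, 88.2 and 117 in LDHA-deficient mice, the lowest LDHA-sufficient value only just above the highest LDHA-deficient one (-0.56 ± 0.16, adjusted p = 0.125). Pdia4 lay on the other side, at 281, 210 and 254 CPM against 342, 288 and 301, every LDHA-deficient mouse above every LDHA-sufficient one (0.32 ± 0.12, adjusted p = 0.213). Its direction turned, to -0.14, when all cells with a UMI of either Jchain or Prdm1 were left out. In non-GC B cells the log2 difference was 0.006 ± 0.13 for Txndc5 and -0.03 ± 0.19 for Pdia4.

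**Figure D4:**
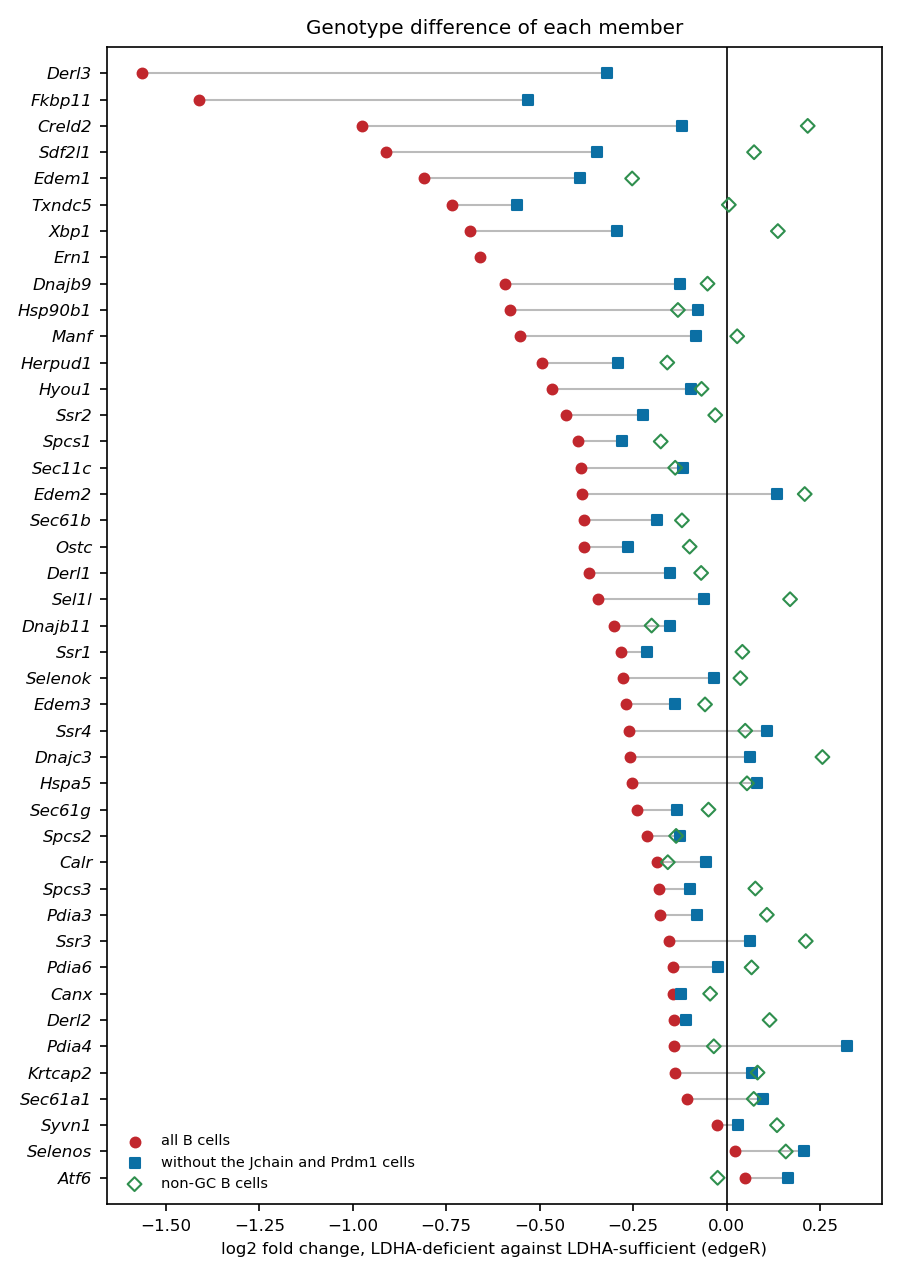
Log2 fold change between genotypes of each gene over all B cells (red circles), without the Jchain and Prdm1 cells (blue squares) and in non-GC B cells (green diamonds), ordered by the first. Derl3 moves from -1.56 to -0.32 and Hsp90b1 from -0.58 to -0.08 when those cells are left out.

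In non-GC, GC B-like and activated B-like cells no member passed the test. Non-GC B cells pool several states, and follicular, marginal zone and interferon-responding cells were not tested between genotypes on their own. In non-GC B cells, with plasma cells also out, 0 of 40 genes tested were called by edgeR or DESeq2, beside 0.107% of 8380 genes, and 0 had an unadjusted p under 0.05, against 5.00% of genes. The median was 0.02, with 21 positive and 19 negative. The 3 smallest p belonged to Dnajc3 (P58IPK, a BiP co-chaperone) at 95.8, 74.8 and 74.5 CPM against 96.9, 96.9 and 99.5, Hsp90b1 at 680, 596 and 655 against 640, 568 and 556, and Calr at 282, 308.1 and 292 against 270, 249.9 and 272. Their log2 differences were 0.26 ± 0.13, -0.13 ± 0.07 and -0.16 ± 0.09, each with adjusted p = 0.958. LDHA-deficient mice were all above for Dnajc3 and all below for Calr, and the groups overlapped for Hsp90b1. Xbp1 stood at 53.5, 84.6 and 63.4 against 94.2, 68.6 and 57.8 CPM (0.14 ± 0.16), with the genotypes interleaved.

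In GC B-like cells 0 of 37 genes tested were called by edgeR or DESeq2, beside 0.282% of 3896 genes, and 3 had an unadjusted p under 0.05, against 11.0% of genes. The median was 0.08, with 27 positive, in 20 to 80 cells per LDHA-sufficient and 8 to 14 per LDHA-deficient mouse. Pdia4 stood at 150, 144 and 264 CPM in LDHA-sufficient and 403, 205 and 383 in LDHA-deficient mice (0.94 ± 0.28, adjusted p = 0.215). It was called by edgeR without LDHA-sufficient mouse 3, which held its highest LDHA-sufficient value (1.17, adjusted p = 0.0302). The share of all genes called in that comparison is not given here. Over all B cells, leaving out the same mouse called 14.7% of genes. Txndc5 stood at 202, 223 and 139 against 64.5, 93.3 and 156 CPM (-0.84 ± 0.30, adjusted p = 0.289). Hspa5 stood at 553, 547 and 624 against 605, 607 and 1149 CPM (0.48 ± 0.23, adjusted p = 0.453), with 1 LDHA-deficient mouse far above the other 5. Its difference was 0.08 without that mouse (LDHA-deficient mouse 3) and -0.17 with coarser clusters. The ranges overlapped in all 3 genes.

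In activated B-like cells LDHA-sufficient mouse 3 had 15 cells, under the minimum of 20, and was left out, so 2 mice stood against 3. None of the 28 genes tested was called by edgeR or DESeq2, beside 0.172% of 2332 genes, and 1 had an unadjusted p under 0.05, against 4.29% of genes. That gene was Ostc, an oligosaccharyltransferase subunit, at 124 and 255 CPM against 98.7, 144 and 71.0 (-0.80 ± 0.39, adjusted p = 0.997). Krtcap2, of the same complex, at 61.8 and 88.6 against 158, 132 and 112 CPM (0.81 ± 0.48), and Herpud1, a stress-induced degradation factor, at 74.2 and 77.5 against 118, 132 and 142 (0.78 ± 0.49), had no overlap between genotypes, each with adjusted p = 0.997. Krtcap2 turned to -0.22 when the members were kept among the clustering genes.

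**Figure D5:**
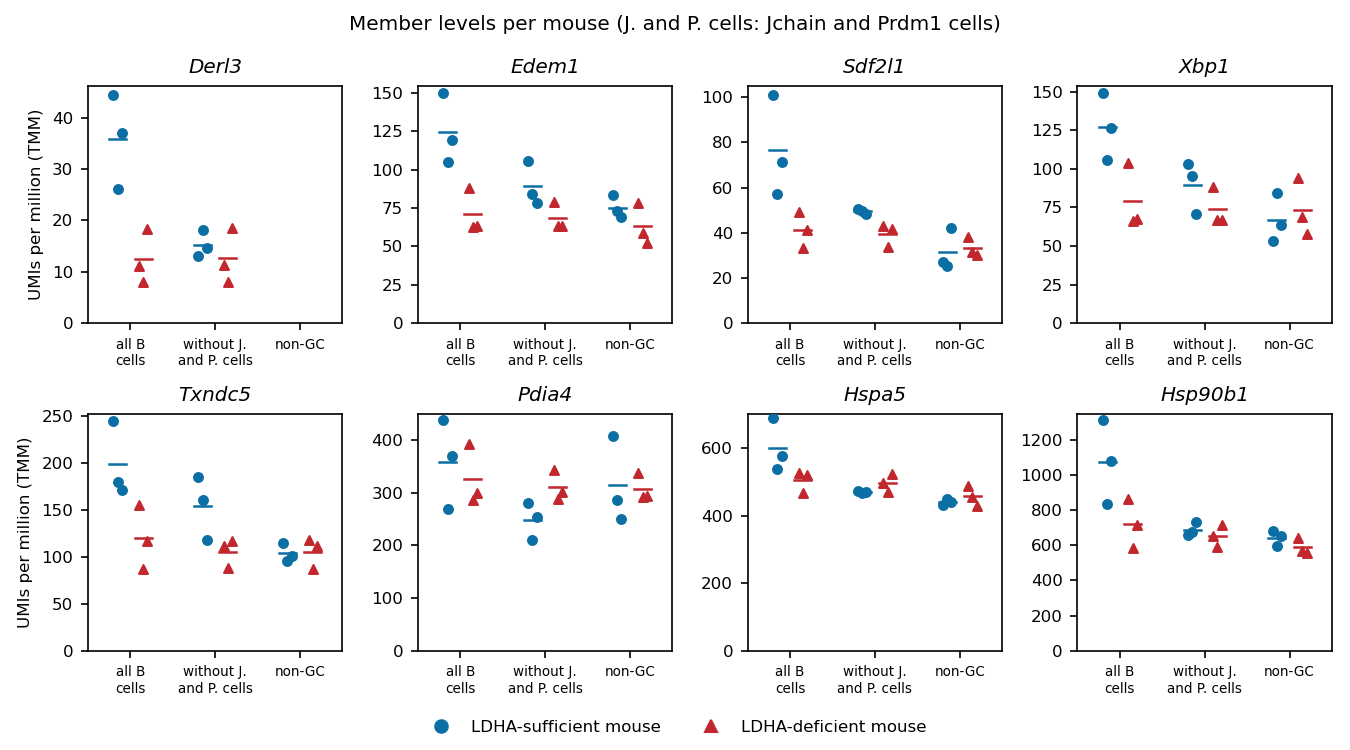
CPM of 8 members in each mouse over all B cells, without the Jchain and Prdm1 cells and in non-GC B cells, with a line at each group mean and the axis from 0. Derl3, at 11.1, 8.004 and 18.4 CPM in LDHA-deficient mice against 26.1 to 44.3 over all B cells, overlaps once those cells are left out, and it was not tested in non-GC B cells, where it did not pass the filter on low counts.

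Too few plasma cells came from LDHA-deficient mice for a test between genotypes within them. The 2 cells of LDHA-deficient mouse 1 held 987 member UMIs, 5.52% of their non-immunoglobulin UMIs, and the 1 cell of mouse 3 held 16, or 0.648%. The high cell of LDHA-deficient mouse 1 held 22 Xbp1, 50 Hspa5 and 15 Fkbp11 UMIs, within the ranges of the 10 high LDHA-sufficient cells (1 to 48, 13 to 238 and 0 to 36). It held 0 Derl3 UMIs, where 9 of those 10 cells held at least 1 and the median was 10.0. The LDHA-sufficient cell with 0 Derl3 UMIs had a like depth, 22651 UMIs against 22686. A single cell gives no measure of its genotype.

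The neighbouring pathway lists had 0 genes called between genotypes over all B cells in each of the 7. The 2 smallest p in each belonged to Psat1 and Eif2ak3 (PERK itself) for the PERK arm (log2 -0.96 and -0.34), Ost4 and Rpn1 for the oligosaccharyltransferase (-0.34 and -0.40), Srpr and Srp9 for the signal recognition particle (-0.44 and -0.32), Lman1 and Sec22b for ER-to-Golgi carriers (-0.57 and -0.42), March6 and Ube2j1 for degradation partners (0.41 and -0.29), Fkbp2 and Mzb1 for folding enzymes (-0.56 and -0.49) and Slamf7 and Lgals1 for plasma cell fate (-0.62 and -1.21). March6 was the only one of these 14 with a positive difference. List medians ran from -0.06 to -0.16, apart from -0.62 for plasma cell fate. Within the non-GC, GC B-like and activated B-like cells 2 list genes passed, both of plasma cell fate. Irf4, a regulator of plasma cell and GC fate named after its values were seen, stood at 52.1, 47.0 and 67.2 CPM in LDHA-sufficient and 226, 168 and 239 in LDHA-deficient GC B-like cells (2.02 ± 0.26, adjusted p = 0.00113). Lgals1 (galectin-1) stood at 67.6, 38.9 and 47.5 against 28.1, 28.4 and 26.7 CPM in non-GC B cells (-0.88 ± 0.20, adjusted p = 0.0339).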

How the data were processed

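Gene expression was deposited as UMI counts per gene and barcode by the authors, and hashtags as UMI counts. The tools were Cell Ranger 6.0.0 and Seurat 4.2.1, with build mm10, per the submitters' processing notes. Cell Ranger 6.0.2 is the version per the file headers. The clone number is another value of the heavy chain table the authors deposited.

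Hashtags were called with HTODemux (Seurat 5.3.0), which gave 1856 of 2831 barcodes (65.6%) to 1 mouse. Barcodes with at least 500 genes and 1000 UMIs and under 10% mitochondrial UMIs were kept. Hashtag doublets were removed. Scrublet called 0 of the rest, so doublets of 1 mouse, 167.4 expected, remain. Cells with at least 3 Jchain and 1 Prdm1 UMIs, and those with at least 50 Jchain UMIs, were set aside, and the others clustered (scanpy 1.11.5) without the members and pathway lists. Clusters were named from at least 3 listed markers. 54 myeloid cells and a cluster of 27 led by macrophage genes were left out. Setting cells aside before clustering was chosen after seeing the data.

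UMIs were summed per mouse and class and tested with edgeR 4.0.16 (TMM, filterByExpr, quasi-likelihood), with p-values adjusted by Benjamini-Hochberg over all genes tested. SEs were taken from the F statistic. At least 20 cells a mouse were required (5 for GC B-like cells, 3 for plasma cells). Mice were separate animals of 1 pooled lane. Members and lists were chosen with earlier results of these data known. Genes named with values per mouse are those past the threshold in a genotype comparison (or the 3 with the smallest p), the 3 largest and the 1 smallest difference of each role in plasma cells, Xbp1, Hspa5, Atf6 and Ern1, and the 2 with the smallest p of each pathway list. The tests were run on simulated counts first. Alternatives were DESeq2 1.42.0, other filters, hashtag calls, clusterings and plasma cell definitions, and leaving out each mouse.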

Additional observations from a re-analysis of the deposited data

How the results depend on the processing

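Over all B cells the count of called members, 2 in the report, was 7 with DESeq2 (2.03% of all genes called in either direction), 12 with no low-count filter (3.97%) and 1 with hashtags called by ratio (1.77%), all lower, and ran from 0 to 8 over the mice left out (0.0108% to 14.7%). Without the plasma cells it was 1 with no low-count filter (3.74%) and 0 to 4 over the mice left out (0.22% to 14.6%). In GC B-like cells it was 0 to 1 over the mice left out, from 0 with none left out, where 0.282% of genes were called. In plasma cells against other B cells it was 21 to 37, from 39 with none left out, where 2.77% of genes were called higher. Of the 794 values of named genes under an alternative, 3 changed sign: Pdia4 without cells holding a UMI of either Jchain or Prdm1 (-0.14, from 0.32), Krtcap2 in activated B-like cells with members kept in clustering (-0.22, from 0.81) and Hspa5 in GC B-like cells at a clustering resolution of 0.4 (-0.17, from 0.48). None of the 3 passed the test under either setting, and the cause was not tested. Thinned to 1000 UMIs a cell, the summed level moved by more than its SD in the Klf2-led cluster (0.521%, from 0.504%) and in interferon-responding cells (0.610%, from 0.528%). The difference in plasma cell share ran from -0.785 to -1.37 percentage points over the mice left out. The shares overlapped between genotypes with hashtags called by ratio, and when plasma cells needed at least 10 Jchain and 2 Prdm1 UMIs. Removing high Scrublet scores left too few mice for activated B-like cells and was not run there. No paired analysis was possible because the hashtag numbers name mice and pair none. Plasma cell values rest on 17 cells, and genes such as Derl3 on 253 UMIs over all B cells, which limits how small a difference could be seen. Alternatives on immunoglobulin genes, the macrophage-led cluster, high Jchain cells, the minimum of 10 activated cells, GC B-like cells as the comparison and other definitions for the share were added after seeing the data.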

Other observations

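A heavy chain clone shared between at least 4 mice was read in 43 kept barcodes, 23 of them in the cluster led by macrophage genes that was left out. Their median depth was 2521 UMIs, with a median of 15 Jchain UMIs and 1 Prdm1 UMI in all. The 43 genes made up 0.593% of their non-immunoglobulin UMIs, close to the 0.518% median of B cells outside the plasma cells and far from the 4.60% to 18.2% of the 11 high plasma cells. Of the 17 plasma cells 1 carried such a clone, a cell with 18 Jchain UMIs and 0.648% of its non-immunoglobulin UMIs in the 43 genes. Leaving out these barcodes left 2 members called over all B cells, beside 1.05% of genes called in either direction. The count in plasma cells stayed at 39.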
